A study of Mus musculus with 39 samples.

Results

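Microglia sorted from E16.5 mouse embryos (3 libraries) were compared with microglia sorted from E12.5 embryos (3 libraries), 6 of the 39 libraries of a study that followed microglia and border-associated macrophages (BAM) in the developing brain. All embryos were C57Bl/6, and the labels name no altered gene and no agent in any group used here. Microglia of E14.5 (2 libraries) are shown as the point between the compared stages, and BAM of E16.5 and E12.5 (3 libraries each) are used to set the change beside that of the neighbouring population. All genes of the count table were considered, 53379 identifiers of which 22061 had enough counts to be tested. Libraries were made from 2 ng of total RNA with a modified SMART-seq2 protocol, and levels are given in CPM, counts scaled to a common library total. The labels used here state neither the sort gates nor the number of embryos per library nor whether replicates were separate litters. The p-values rest on the spread between libraries within groups, estimated over all 39 libraries and not over the compared ones alone. That spread may in part be technical.

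Microglia descend from yolk sac progenitors that enter the embryonic brain early, multiply there and mature while the neural tissue is built around them. Receptors for nucleotides, for CSF1 and for fractalkine belong to their mature equipment, and lysosomal enzymes break down the dying cells and debris that they take up. In the perinatal brain, microglia of developing axon tracts carry a set of transcripts that includes Spp1 and Gpnmb. BAM live in the meninges, the perivascular spaces and the choroid plexus and are known for Mrc1, Lyve1 and F13a1.

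The libraries held 14995696 to 18126402 counts at E16.5 and 16225222 to 23529992 at E12.5, and those of E14.5 held 21373156 and 17250842. All of them carry the same series mark, R8, and 0 pairs of libraries held identical counts. The markers fitted the sorted label. P2ry12, a purinergic receptor that marks microglia, stood at 1850 ± 79.1 CPM in E16.5 microglia and 981 ± 316 CPM in E12.5 microglia (SD, n = 3 each), and at 254 ± 33.4 CPM in E16.5 BAM and 114 ± 8.53 CPM in E12.5 BAM. F13a1, the A subunit of coagulation factor XIII and a BAM transcript, was at 183 ± 138 CPM in E16.5 microglia and 554 ± 478 CPM in E12.5 microglia, and at 10510 ± 1762 CPM in E16.5 BAM and 5927 ± 784 CPM in E12.5 BAM.

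A single library stood apart within its group. Replicate 3 of E12.5 had 1101 CPM of F13a1 and 994 CPM of Mrc1, the mannose receptor, while the other E12.5 libraries had 339 and 220.4 CPM of F13a1 and 606 and 221 CPM of Mrc1. Its 20 BAM markers summed to 7228 CPM, while the sum was 3019 to 4074 CPM in the E16.5 libraries and 4057 and 2584 CPM in the other E12.5 libraries. Its 25 microglia core genes summed to 17570 CPM, the lowest of the 6 libraries, while the sum was 37470 to 37800 CPM at E16.5 and 25660 and 23370 CPM in the other E12.5 libraries. Results that rest on this library are given with and without it. The fits that left out each of the 6 libraries in turn are called leave-one-out fits.

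Of the 22061 genes tested with edgeR's quasi-likelihood test, 883 changed at a Benjamini-Hochberg adjusted p under 0.05. E16.5 microglia had more transcript of 403 genes (1.83% of the genes tested) and less of 480 (2.18%) than E12.5 microglia. Most changes were moderate. The median log2 fold change, E16.5 over E12.5, was 0.81 among the genes that rose and -0.82 among those that fell, against 0.03 over all tested genes. The change was at least 2-fold in 134 of the risen and 154 of the fallen genes. In 854 of the 883 genes the libraries of the stages did not overlap, which the selection of genes by p favours by construction. The share over all tested genes was not computed, so this count adds no support to the calls. The number of called genes was 446 without replicate 1 of E16.5, 474 without replicate 2 of E12.5, 545 without replicate 2 of E16.5 and 569 without replicate 3 of E12.5, and in the last of these fits 150 genes were higher and 419 lower. In bulk libraries, a change in the share of cells that express a gene and a change in transcript per cell cannot be told apart.

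The E14.5 mean lay between the means of the compared stages for 325 of the risen and 447 of the fallen genes, 87.4% in all. Among all tested genes this share was 36.6%, and a wide gap between the outer stages raises it by construction. Measured on the log2 scale from E12.5 (0) to E16.5 (1), the median position of E14.5 was 0.28 for the genes that rose and 0.42 for those that fell.

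**Figure D1:**
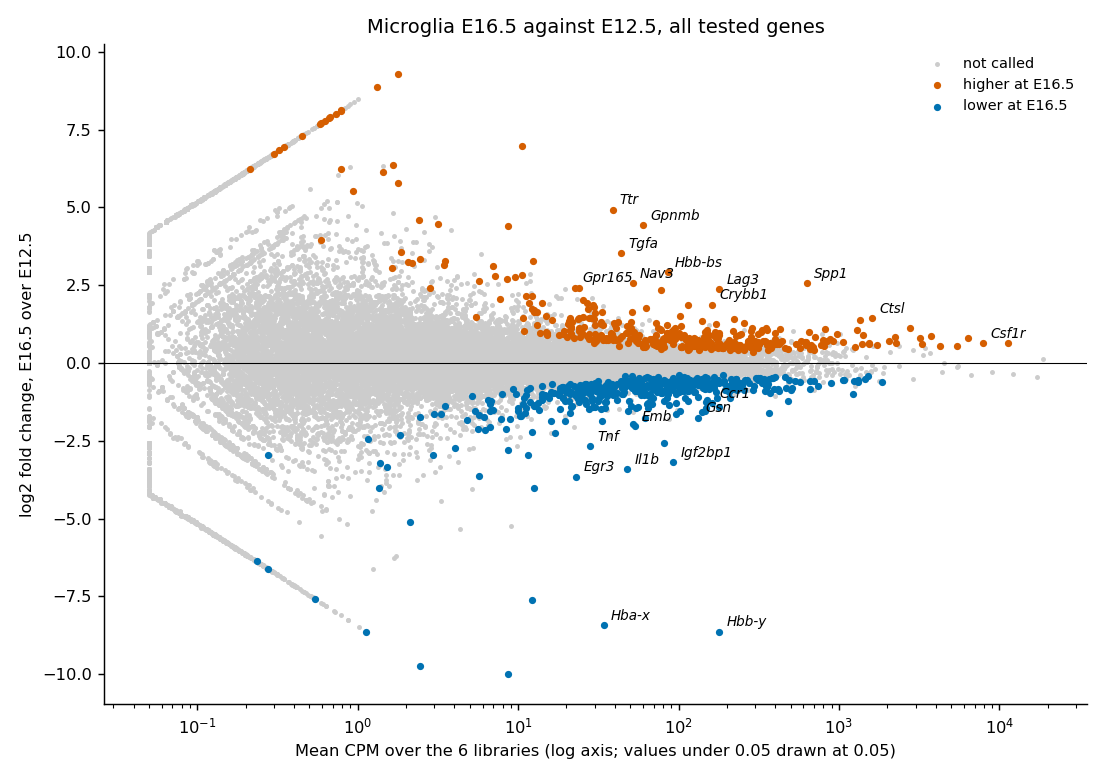
Each point is 1 of the 22061 tested genes, with its mean CPM over the 6 microglia libraries on a log axis and its log2 fold change, E16.5 over E12.5, on the vertical axis. Orange points (403) were called higher at E16.5, blue points (480) lower, and grey points were not called.

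Genes of the axon-tract type of microglia were among those that rose furthest. Gpnmb, a glycoprotein of phagocytes rich in lysosomes (chr6:49036546-49070929, GRCm38), was at 56.6, 111 and 179 CPM at E16.5, against 7.72, 3.79 and 4.61 CPM at E12.5. The lowest E16.5 library was far above the highest E12.5 library (log2 fold change 4.43 ± 0.69, edgeR adjusted p = 0.000554). Spp1, the secreted matrix protein osteopontin (chr5:104435118-104441050), was at 693, 909.8 and 1621 CPM at E16.5, against 254, 131 and 161 CPM at E12.5. Its groups did not overlap either (log2 fold change 2.56 ± 0.33, edgeR adjusted p = 1.32e-05). At E14.5 Gpnmb stood at 49.7 and 39.5 CPM and Spp1 at 526 and 644 CPM, between the compared stages for both genes.

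Of the 24 genes of this list, 9 rose and 1 fell, with a median log2 fold change of 0.50. Besides Gpnmb and Spp1, the growth factor gene Csf1 (1.35), the galectin Lgals3 (1.41), the heparanase Hpse (1.34), Pld3 (1.11), the tetraspanin Cd9 (1.10) and the cathepsins Ctsl (1.43) and Ctsb (0.64) rose. Lgals1, another galectin, was the member that fell (-1.87 ± 0.30). Apoe, a lipid carrier and an abundant transcript of microglia, was at 19410 ± 4951 CPM at E16.5 and 17830 ± 4031 CPM at E12.5 and was not called. The number of risen members was 6 without replicate 2 of E12.5, 6 without replicate 3 of E12.5 and 6 without replicate 3 of E16.5. The adjusted p of Csf1 over the leave-one-out fits was 0.0228 to 0.0975 (edgeR), highest without replicate 3 of E12.5. In BAM over the same stages 8 genes of this list rose and 1 fell, with a median of 0.51. Among all 22061 tested genes, 607 rose and 430 fell in BAM.

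**Figure D2:**
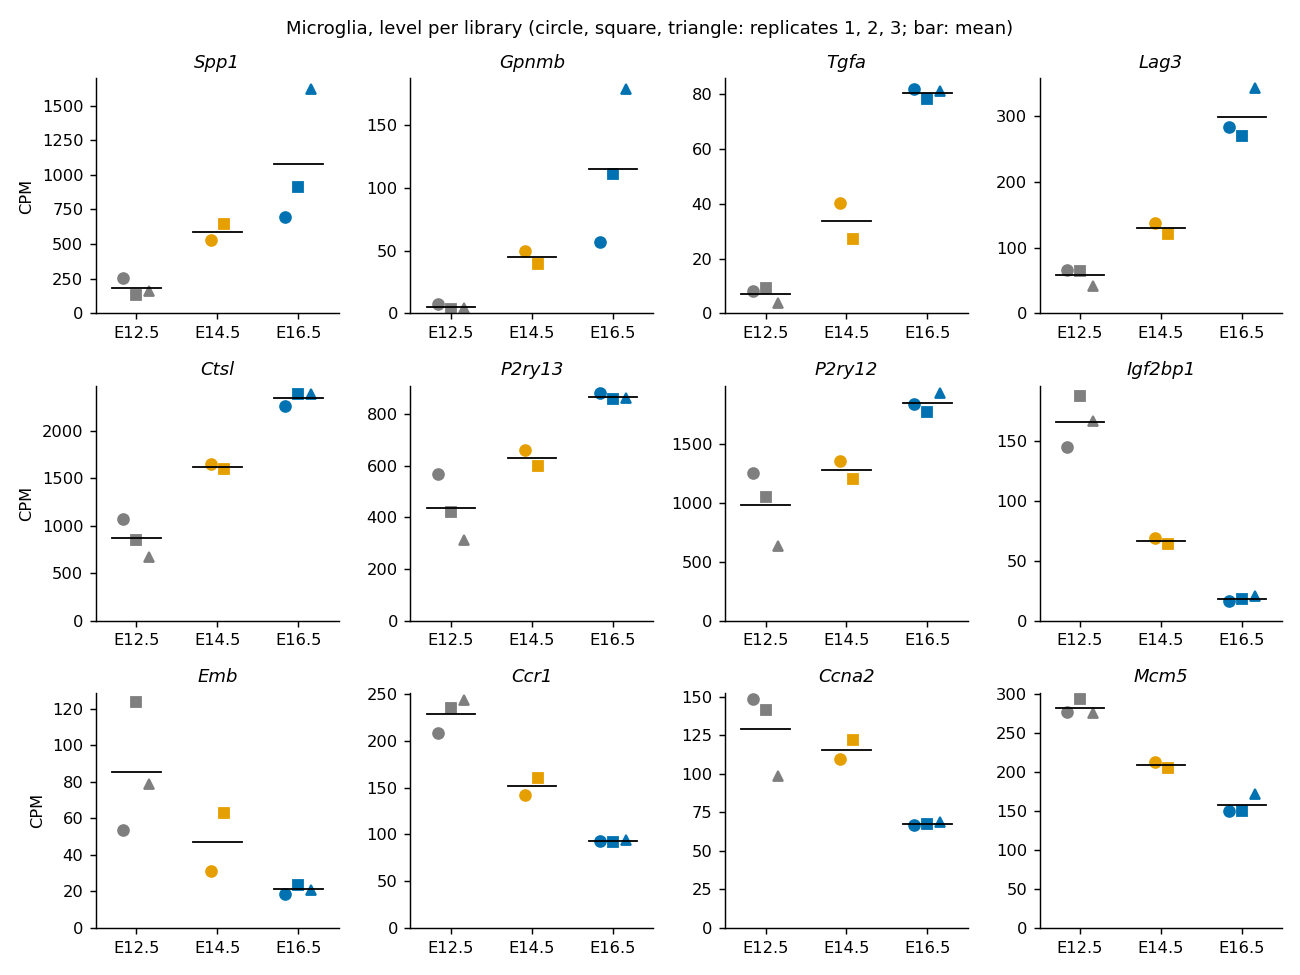
CPM of 12 genes in each microglia library, with the stages from E12.5 to E16.5 along the horizontal axis, replicates 1 to 3 drawn as circle, square and triangle, and bars at the group means. In all 12 panels the E16.5 points are clear of the E12.5 points and the E14.5 mean lies between the other means.

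Tgfa, Lag3 and Gpr137b were further genes with a large rise. Tgfa, a ligand of the EGF receptor (chr6:86195223-86275719), was at 81.7, 78.2 and 81.2 CPM at E16.5, against 8.07, 9.19 and 3.81 CPM at E12.5. The E16.5 libraries were nearly equal and far above those of E12.5 (log2 fold change 3.52 ± 0.34, edgeR adjusted p = 2.07e-07). Lag3, an immune checkpoint receptor best known from T cells (chr6:124904361-124911705), was at 285, 269.9 and 343 CPM at E16.5, against 66.1, 65.0 and 42.4 CPM at E12.5 (log2 fold change 2.37 ± 0.27, edgeR adjusted p = 1.76e-06). Gpr137b, a membrane protein of lysosomes, averaged 129.9 ± 6.73 CPM at E16.5 and 25.9 ± 10.6 CPM at E12.5, with no overlap (log2 fold change 2.33 ± 0.25, edgeR adjusted p = 8.10e-07). The orphan receptor Gpr165 (2.42), the myelin protein gene Pmp22 (2.03), the ether lipid monooxygenase Agmo (1.93), the crystallin Crybb1 (1.88) and the ion cotransporter Slc12a2 (1.85) also rose. These 8 genes were called in every leave-one-out fit. Liph (2.41), Nav3 (2.57) and Ecscr (1.88) rose too but lost the call in some or all of these fits, where the edgeR adjusted p was 0.0163 to 0.114 for Liph, 0.0310 to 0.168 for Nav3 and 0.0502 to 0.178 for Ecscr. It was highest without replicate 2 of E12.5 for Liph and Ecscr and without replicate 3 of E12.5 for Nav3, which DESeq2 did not call (adjusted p = 0.0734).

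Of 25 microglia core genes, 13 rose and 1 fell, and the median log2 fold change was 0.78. Those that rose included Ltc4s, Crybb1, Sparc, Siglech, Mertk, P2ry13, P2ry12, Fcrls, Gpr34, Trem2, Csf1r and Cx3cr1. P2ry12 (chr3:59216272-59262871) was at 1841, 1775 and 1933 CPM at E16.5, against 1253, 1055 and 635 CPM at E12.5. Replicate 3 was the lowest of the E12.5 libraries and the groups did not overlap (log2 fold change 0.92 ± 0.19, edgeR adjusted p = 0.00373). Csf1r, the receptor on which microglia depend for survival, averaged 9563 ± 452 CPM at E16.5 and 6192 ± 931 CPM at E12.5 (log2 fold change 0.63 ± 0.12, edgeR adjusted p = 0.00120). Aif1, which encodes the cytoskeletal protein IBA1, fell by 0.82 on the log2 scale, and this call, the 1 fall of the list, was lost without replicate 3 of E12.5 and without replicate 1 of E16.5.

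Some defining genes did not pass the test. Sall1, a transcription factor of microglia, stood at 346 ± 30.4 CPM at E16.5 and 165 ± 40.9 CPM at E12.5 with no overlap (log2 fold change 1.07 ± 0.62, edgeR adjusted p = 0.421). Tmem119 (log2 fold change 0.59 ± 0.25, edgeR adjusted p = 0.205) and Olfml3 (log2 fold change 0.93 ± 0.31, edgeR adjusted p = 0.0868) were not called either. In fits on the 6 compared libraries alone, Sall1 and Olfml3 passed, with edgeR adjusted p of 0.0205 and 0.0425. Olfml3 also passed with the R8 libraries alone (edgeR adjusted p = 0.0267) and with DESeq2 (adjusted p = 0.0373). Sall1 passed in neither (edgeR adjusted p = 0.07745, DESeq2 adjusted p = 0.661). Over the leave-one-out fits, which share the spread of the other libraries, the edgeR adjusted p was 0.430 to 0.721 for Sall1 and 0.0897 to 0.446 for Olfml3.

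The core list rested in part on the library that stood apart. Without replicate 3 of E12.5, 5 of the 25 genes rose and the list median was 0.51, and in the other leave-one-out fits 10 or 11 rose. The edgeR adjusted p over the leave-one-out fits was 0.00139 to 0.127 for P2ry12, 0.000703 to 0.0698 for Csf1r and 0.00310 to 0.141 for Siglech, and each highest value was the one without that library. The log2 fold changes without it were 0.59 for P2ry12, 0.43 for Csf1r and 0.76 for Siglech. For Cx3cr1, the fractalkine receptor, the range was 0.00539 to 0.448, and for Trem2, a lipid receptor, 0.0395 to 0.164. The BAM markers summed highest in that same library, as given above, and their part in these results was not tested. Fcrls, a microglial gene of the Fc receptor-like family (0.87), P2ry13 (1.00), Mertk (1.07), Crybb1 (1.88) and the leukotriene synthase Ltc4s (1.94) were called in all 6 fits.

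Purinergic genes sense and degrade extracellular nucleotides. Of 16 tested, 4 rose and 0 fell, with a median of 0.81: P2rx7, an ATP-gated channel (1.00 ± 0.18), the ADP receptors P2ry13 (1.00 ± 0.17) and P2ry12, and the ectonucleotidase Entpd1 or CD39 (0.70 ± 0.11). Entpd1 was at 545, 553 and 548 CPM at E16.5, against 359, 325 and 326 CPM at E12.5. Its libraries were close within each stage and did not overlap between them (edgeR adjusted p = 0.000118). Of 18 ion channel genes, 3 rose, P2rx7, the proton channel Hvcn1 (0.93) and the potassium channel Kcnk13 (0.88), and the chloride channel protein Clic4 fell (-0.71). The number risen was 1 without replicate 2 and 1 without replicate 3 of E12.5, and the edgeR adjusted p over the leave-one-out fits was 0.00194 to 0.137 for Hvcn1, 0.0325 to 0.321 for Kcnk13 and 0.00259 to 0.0518 for Clic4.

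Lysosomal genes were higher at E16.5 by moderate amounts. Of 35, 15 rose and 1 fell, with a median of 0.46. Cathepsin L (Ctsl, chr13:64359337-64370890), a cysteine protease, was at 2256, 2388 and 2387 CPM at E16.5, against 1075, 852 and 675 CPM at E12.5. Every E16.5 library was above every E12.5 library (log2 fold change 1.43 ± 0.18, edgeR adjusted p = 3.95e-06). Cathepsin F (Ctsf, 1.06 ± 0.13), progranulin (Grn, 0.80 ± 0.12) and the aspartic protease cathepsin D (Ctsd, 0.79 ± 0.14) rose, and Ctsd was at 7082, 7690 and 9610 CPM at E16.5, against 4977, 4948 and 4136 CPM at E12.5. The widest change of the list, 4.47, was that of the proton pump subunit Atp6v0d2 at a low level, with 2.31, 6.16 and 9.71 CPM at E16.5 and 0.701, 0.139 and 0 CPM at E12.5. Cathepsin C (Ctsc) was the member that fell (-0.65), and 0 members fell without replicate 1 of E16.5. Without replicate 3 of E12.5, 9 members rose.

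Receptors and bridging proteins for dying cells mostly rose where they changed. Of 25 genes for apoptotic cell uptake and lipid handling, 6 rose (Mertk, Trem2, Mfge8, Gas6, Lrp1 and Pros1) and 1 fell (Cd36), with a median of 0.36. Mertk, a receptor kinase that binds apoptotic cells through Gas6 and protein S, was at 563, 470.2 and 412 CPM at E16.5, against 249, 238 and 201 CPM at E12.5. Its groups did not overlap (log2 fold change 1.07 ± 0.16, edgeR adjusted p = 8.01e-05). The number risen was 2 without replicate 2 and 2 without replicate 3 of E12.5, and it was 3 without replicate 1, 1 without replicate 2 and 3 without replicate 3 of E16.5. Mertk was called in each of these fits. For the lipoprotein receptor Lrp1 the edgeR adjusted p was 0.0116 to 0.182, and for Cd36, a fatty acid receptor, 8.61e-05 to 0.149.

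Surface receptors of the immune system changed in both directions. Fcgr2b, the inhibitory receptor for IgG, rose by 1.28 ± 0.22 on the log2 scale, Sirpa, which reads CD47 on other cells, by 0.84 ± 0.13, and Cd84 by 0.69 ± 0.13. Of 8 tested Fc receptor genes 3 rose, namely Fcgr2b, Fcrls and Fcrl1, and Fcrl1 lost the call in every leave-one-out fit (edgeR adjusted p 0.0568 to 0.272). Of 24 inhibitory and paired receptors 4 rose, Siglech, Sirpa, Cd84 and Vsir, and the lectin Clec12a fell (-0.97). None of the 24 fell in the fits without replicate 2 of E12.5 or without any 1 of the 3 E16.5 libraries. Vsir had an edgeR adjusted p of 0.0124 to 0.362 over the leave-one-out fits, highest without replicate 3 of E12.5.

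Among 25 chemokine and cytokine receptors 5 rose and 2 fell. The interleukin 6 receptor Il6ra rose by 0.66 ± 0.12, while the chemokine receptor Ccr1 fell. Ccr1 was at 93.2, 91.4 and 94.3 CPM at E16.5, against 209, 235 and 244 CPM at E12.5. Both groups were tight and lay far apart (log2 fold change -1.30 ± 0.14, edgeR adjusted p = 4.45e-07). Without replicate 3 of E12.5, 2 receptors rose. Of 16 Toll-like receptor genes 4 rose, Tlr6 (1.14 ± 0.20), Tlr7 (0.74), Tlr1 (0.53) and the trafficking protein Unc93b1 (0.58), and the adaptor Myd88 fell (-0.56). The number risen was 2 without replicate 2 and 2 without replicate 3 of E12.5. Tlr6 was called in each leave-one-out fit, and the edgeR adjusted p was 0.00185 to 0.0858 for Tlr7, 0.00384 to 0.0530 for Unc93b1 and 0.0145 to 0.101 for Myd88.

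Complement genes tag and control the uptake of material. Of 18, 5 rose and 0 fell, with a median of 0.55, but the number was 0 without replicate 3 of E12.5, 1 without replicate 2 of E12.5, and 3 without replicate 1 of E12.5, replicate 1 of E16.5 or replicate 2 of E16.5. Itgam (0.85 ± 0.19) and Itgb2 (0.58 ± 0.16) form complement receptor 3. Over the leave-one-out fits their edgeR adjusted p was 0.0144 to 0.1 for Itgam and 0.0430 to 0.309 for Itgb2. C4b and Cd55 were near the limit of detection. C4b had 61, 22 and 56 counts in the E16.5 libraries and 0 in every E12.5 library, at least 57.4-fold higher with 3 counts allowed over the E12.5 group. Cd55 had 44, 13 and 26 counts at E16.5 and 0 in every E12.5 library, at least 34.3-fold higher on the same basis. C1qa, a chain of C1q, was at 1597, 1985 and 2210 CPM at E16.5, against 1347, 1218 and 1425 CPM at E12.5 and was not called (edgeR adjusted p = 0.331). It was called with the R8 libraries alone (edgeR adjusted p = 0.0296) but not with the compared libraries alone (edgeR adjusted p = 0.101).

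Genes of cell division were lower at E16.5. Of 25 mitosis genes 18 fell and 0 rose, all 25 had a log2 fold change below 0, and the median was -0.77, against 0.03 over all tested genes. In the leave-one-out fits 13 to 17 of them fell. Of 27 DNA replication genes 12 fell and 0 rose, all 27 were below 0 and the median was -0.68. The number that fell was 7 without replicate 2 of E12.5, 8 without replicate 1 of E16.5 and 8 without replicate 2 of E16.5. The mitosis genes summed to 2926 to 2961 CPM at E12.5, 2562 to 2735 CPM at E14.5 and 1687 to 1908 CPM at E16.5. The replication genes summed to 2891 to 3206 CPM, 2513 to 2710 CPM and 1924 to 2052 CPM at the same stages. For both lists the ranges of the 3 stages did not overlap.

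Mitotic genes are known to be switched on together late in the cell cycle through CCAAT boxes, bound by NF-Y, and the element TTTGAA, bound by the MuvB complex, while replication genes are known for E2F sites. Since the mitosis genes fell together, their RefSeq promoter windows (GRCm38.p6, 250 bases before to 50 after the start, 300 in all) were searched on both strands for CCAAT boxes, for the TTTGAA element, for the E2F-type motif TTCCCGC and for its variant TTCGCGC, with 1 window per gene. Windows were matched for 20 of the 25 mitosis genes, all but Ccna2, Tpx2, Kif20a, Aurkb and Incenp, and for 22 of the 27 replication genes. Shown are the 4 matched mitosis genes with the smallest p in the comparison, of which 3 held both elements and Ccnb1 held CCAAT alone: Aurka (chr2:172370521-172370820), Ccnb2 (chr9:70421505-70421804), Cdca8 (chr4:124936868-124937167) and Ccnb1 (chr13:100786437-100786736). All lie on the minus strand and are written 5′ to 3′ along the gene, with matches on either strand in capitals. A CCAAT box on the other strand reads ATTGG, and the TTTGAA element there reads TTCAAA.
Aurka: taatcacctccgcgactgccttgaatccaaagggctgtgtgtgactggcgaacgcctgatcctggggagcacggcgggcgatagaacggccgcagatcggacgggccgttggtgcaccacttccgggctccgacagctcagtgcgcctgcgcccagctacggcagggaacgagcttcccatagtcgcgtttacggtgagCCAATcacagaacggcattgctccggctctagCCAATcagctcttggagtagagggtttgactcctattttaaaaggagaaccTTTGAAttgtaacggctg
Ccnb2: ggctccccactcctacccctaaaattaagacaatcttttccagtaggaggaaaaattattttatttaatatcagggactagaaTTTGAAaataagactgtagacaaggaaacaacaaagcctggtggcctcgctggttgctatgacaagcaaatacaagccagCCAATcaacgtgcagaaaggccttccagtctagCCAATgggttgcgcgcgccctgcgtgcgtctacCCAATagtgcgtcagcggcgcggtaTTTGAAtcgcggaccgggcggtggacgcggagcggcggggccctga
Cdca8: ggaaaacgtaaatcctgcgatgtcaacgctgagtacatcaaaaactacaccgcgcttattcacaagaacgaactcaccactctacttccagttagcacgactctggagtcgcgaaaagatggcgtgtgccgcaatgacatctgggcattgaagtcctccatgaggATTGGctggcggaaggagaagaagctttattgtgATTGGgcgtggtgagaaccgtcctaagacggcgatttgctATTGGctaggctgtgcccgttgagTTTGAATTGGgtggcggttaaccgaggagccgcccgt
Ccnb1: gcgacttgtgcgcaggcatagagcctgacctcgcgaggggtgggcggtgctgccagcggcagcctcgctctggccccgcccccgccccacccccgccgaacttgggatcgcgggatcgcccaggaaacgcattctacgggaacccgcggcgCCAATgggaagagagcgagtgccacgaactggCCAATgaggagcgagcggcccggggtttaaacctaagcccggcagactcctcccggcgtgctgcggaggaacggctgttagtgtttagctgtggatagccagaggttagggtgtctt
The Aurka window held 2 CCAAT and 1 TTTGAA, the Ccnb2 window 3 and 2, the Cdca8 window 4 and 1, and the Ccnb1 window 2 and 0. In Cdca8 the TTTGAA overlaps an ATTGG.

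Of the 20 mitosis windows, 18 (90%) held CCAAT, 15 (75%) held TTTGAA and 15 held both. Among all 27025 genes with a window, the shares were 37.9% for CCAAT, 18.1% for TTTGAA and 7.12% for both. TTCCCGC was in 0 of 20 mitosis windows and in 11 of 22 replication windows (50%), against 4.66% of all. TTCGCGC was in 1 of 20 mitosis windows and 4 of 22 replication windows (18.2%), against 1.59% of all, and TTTGAA was in 3 of 22 replication windows (13.6%). CCAAT was in 14 of 22 replication windows (63.6%), so its share was above that of all windows in both lists. A match describes letters in a window and does not show binding.

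The genes with printed promoters fell by similar amounts. Aurka, a spindle kinase, was at 42.1, 34.0 and 51.1 CPM at E16.5, against 80.0, 86.7 and 97.8 CPM at E12.5 (log2 fold change -1.06 ± 0.17, edgeR adjusted p = 0.000141). Ccnb2, a mitotic cyclin, was at 59.6, 55.1 and 56.6 CPM at E16.5, against 104, 113 and 127 CPM at E12.5 (log2 fold change -1.004 ± 0.16, edgeR adjusted p = 0.000143). Cdca8, a subunit of the chromosomal passenger complex, was at 57.2, 55.5 and 80.4 CPM at E16.5, against 104, 124 and 161 CPM at E12.5 (log2 fold change -1.01 ± 0.17, edgeR adjusted p = 0.000244). In each of them every E16.5 library was below every E12.5 library. The mitotic cyclin Ccnb1 fell by 1.08 on the log2 scale, and Ccna2, a cyclin of S and G2 phase, by 0.93. Top2a, a topoisomerase needed to part chromosomes, fell by 0.64. Mki67, the proliferation marker Ki-67, was at 329, 222 and 182 CPM at E16.5, against 359, 371 and 331 CPM at E12.5 and was not called (log2 fold change -0.53 ± 0.19, edgeR adjusted p = 0.112). Replicate 1 of E16.5 came closest to the E12.5 libraries, and without it Mki67 was called. Its adjusted p over the leave-one-out fits was 0.0189 to 0.404 (edgeR).

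Among the replication genes, Mcm5, a subunit of the replicative helicase, was at 149.8, 149.9 and 173 CPM at E16.5, against 277, 295 and 275 CPM at E12.5. The groups were tight and apart (log2 fold change -0.84 ± 0.13, edgeR adjusted p = 0.000168). The origin licensing factor Cdc6 fell by 1.21, the helicase subunit Mcm4 by 0.90 and the ribonucleotide reductase subunit Rrm2 by 0.93 on the log2 scale. Of 24 splicing and chromatin genes of dividing cells 9 fell and 0 rose, with a median of -0.47. The chromatin proteins Hmgb2 (-1.13 ± 0.21), Hmgn2 (-0.95 ± 0.19) and H2afz (-0.91) and the RNA-binding protein Hnrnpa1 (-0.73 ± 0.15) were among them. The number was 4 without replicate 2 and 6 without replicate 1 of E16.5. Of 22 G1 cyclins and inhibitors, the cyclin Ccnd3 (-0.85 ± 0.16) and the inhibitor Cdkn2d (-0.98 ± 0.26) fell and 0 rose. Ccnd3 was called in each leave-one-out fit, and the edgeR adjusted p of Cdkn2d was 0.0114 to 0.103.

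**Figure D3:**
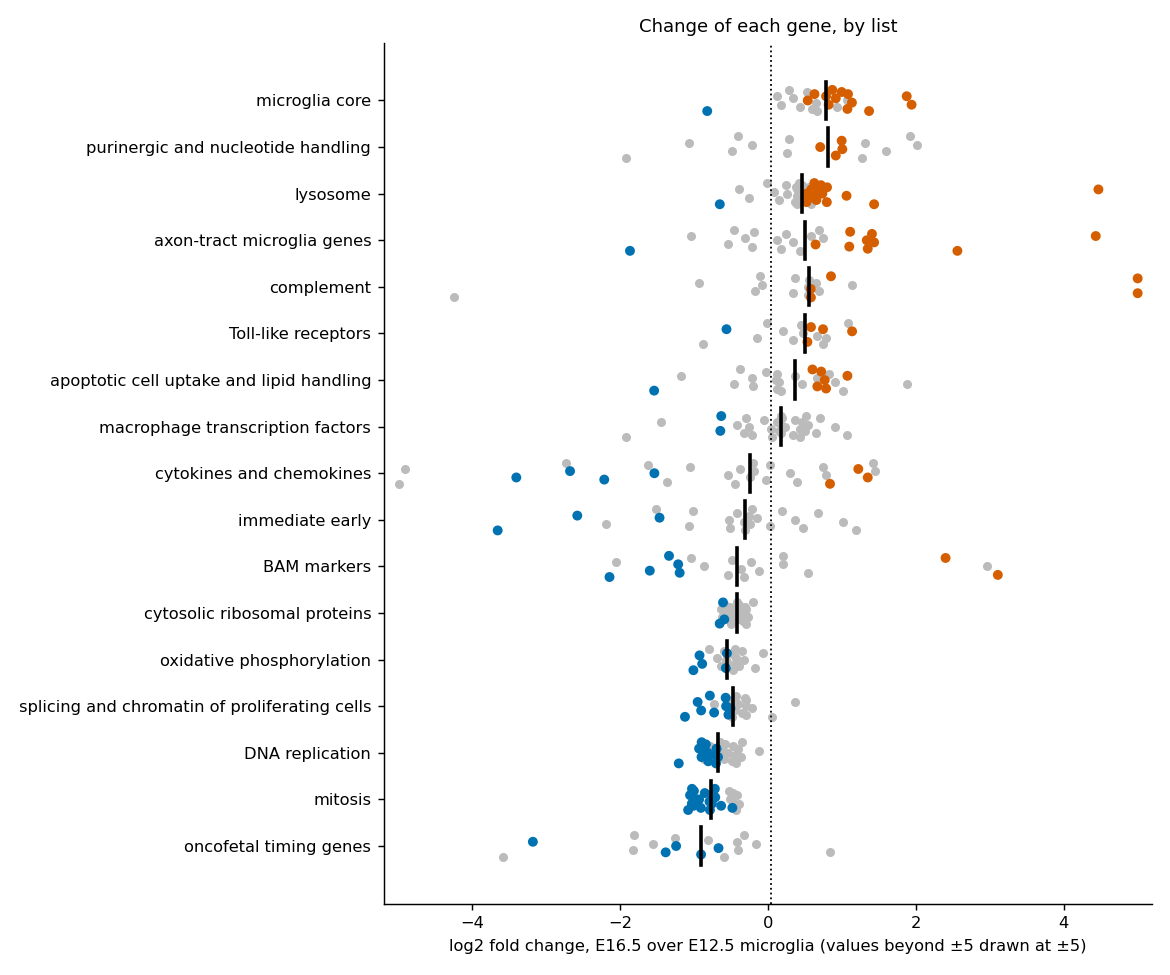
Log2 fold change, E16.5 over E12.5, of each tested gene in 17 lists, with values beyond ±5 drawn at ±5. Orange points were called higher, blue points lower and grey points not called, black bars are list medians and the dotted line is the median of all tested genes (0.03). All 25 mitosis, 27 DNA replication, 21 oxidative phosphorylation and 26 ribosomal protein genes lie left of 0, and 24 of the 25 microglia core genes lie right of it.

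The smallest adjusted p of all tested genes belonged to a gene of the fetal growth programme. Igf2bp1, an RNA-binding protein of embryonic cells (chr11:95957163-96005940), was at 145, 188 and 167 CPM at E12.5, 68.8 and 64.3 CPM at E14.5 and 16.4, 18.2 and 20.5 CPM at E16.5. The libraries were close within each stage and the 3 stages did not overlap (log2 fold change -3.18 ± 0.18, edgeR adjusted p = 2.87e-13). Of 17 oncofetal timing genes 5 fell and 0 rose, with a median of -0.91. The others that fell were the imprinted RNA H19 (-1.39), Lin28b, which blocks the maturation of let-7 microRNAs (-1.25 ± 0.34), the transcription factor Arid3a (-0.91 ± 0.18) and Igf2bp3 (-0.67 ± 0.15). The number was 3 without replicate 2 and 3 without replicate 3 of E16.5, and the edgeR adjusted p of Lin28b was 0.00674 to 0.183 over the leave-one-out fits.

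Genes of energy metabolism and protein synthesis shifted by small amounts. All 21 oxidative phosphorylation genes had a log2 fold change below 0, with a median of -0.55, and 5 fell (Cox6a1, Ndufa4, Atp5o, Atp5a1 and Atp5b). Cox6a1, a cytochrome oxidase subunit, was at 13.1, 17.9 and 16.1 CPM at E16.5, against 29.2, 30.3 and 35.2 CPM at E12.5 (log2 fold change -1.01 ± 0.21, edgeR adjusted p = 0.00281). All 26 cytosolic ribosomal protein genes were below 0 as well, with a median of -0.43, and 3 fell, Rps14 and Rpl23 among them. These genes have many near-identical pseudogenes, and how shared reads were counted is not given in the sources used here. Without replicate 2 of E12.5, 2 oxidative phosphorylation and 0 ribosomal protein genes fell, and the numbers were also 2 and 0 without replicate 1 of E16.5. Without replicate 3 of E16.5, 1 ribosomal protein gene fell. The edgeR adjusted p over the leave-one-out fits was 0.00737 to 0.160 for Rps14 and 0.0116 to 0.0691 for Ndufa4.

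Of 22 glycolysis identifiers 2 rose, Pfkfb3, which makes an activator of glycolysis (1.06 ± 0.18), and the aldolase Aldoc (2.76 ± 0.59), and 4 fell (Slc2a3, Eno1, Ldha and Pgk1). None of the 4 fell without replicate 2 of E12.5 or without replicate 2 of E16.5, and 1 did without replicate 1 of E16.5. The edgeR adjusted p of Aldoc was 0.00712 to 0.0724, highest without replicate 3 of E12.5. Asns, the asparagine synthetase, was at 5.61, 7.58 and 7.93 CPM at E16.5, against 18.7, 19.1 and 22.4 CPM at E12.5. Its groups lay apart (log2 fold change -1.51 ± 0.22, edgeR adjusted p = 4.50e-05), and of 15 serine and one-carbon synthesis genes it fell with Shmt2 (-0.58; edgeR adjusted p 0.0200 to 0.269 over the leave-one-out fits). The transferrin receptor Tfrc fell by 1.24. Of 31 macrophage transcription factors Tfec (-0.63) and Ets2 (-0.65) fell and 0 rose, with an edgeR adjusted p of 0.0186 to 0.136 for Tfec and 0.0384 to 0.236 for Ets2 over those fits. None of 26 cholesterol and fatty acid synthesis genes, 10 MHC class II genes, 15 MHC class I genes or 25 TGF-beta signalling genes was called in the reported edgeR fit. Over all tested genes 1.83% were called higher and 2.18% lower. The list medians were -0.21, 0.76, 0.31 and 0.06 in that order, and 9 of the 10 MHC class II genes were above 0.

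Il1b and Tnf were lower at E16.5, with a wide spread at E12.5, while the cytokine and chemokine list changed in both directions. Il1b, the cytokine interleukin 1 beta, was at 5.50, 12.8 and 6.53 CPM at E16.5, against 25.4, 153 and 83.9 CPM at E12.5 (log2 fold change -3.41 ± 0.84, edgeR adjusted p = 0.0244). Tnf, tumour necrosis factor, was at 8.59, 7.58 and 6.64 CPM at E16.5, against 30.3, 64.8 and 51.2 CPM at E12.5 (log2 fold change -2.68 ± 0.57, edgeR adjusted p = 0.00661). In both genes replicate 1 was the lowest of the E12.5 libraries, although above every E16.5 library. The chemokine genes Ccl7 (-2.22 ± 0.39) and Ccl2 (-1.54) also fell, while Csf1 (1.35 ± 0.32), Ccl6 (1.22 ± 0.24) and Ccl9 (0.84) rose. That made 3 risen, 4 fallen and 20 not called of 27 tested cytokines and chemokines, with a median of -0.24.

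Immediate early genes are known to respond quickly to stimuli, including the handling of cells. Of 23, 3 fell, Egr3 (-3.66 ± 0.78), Nr4a1 (-2.58 ± 0.70) and Egr2 (-1.47 ± 0.41), and 0 rose. The list's summed level overlapped, at 8089, 3749 and 2924 CPM at E16.5 and 4138, 6307 and 7456 CPM at E12.5. The number that fell was 0 without replicate 2 of E16.5, and 1 without replicate 2 of E12.5, replicate 1 of E16.5 or replicate 3 of E16.5. The number of cytokine genes that fell was 2 without replicate 1 and 2 without replicate 2 of E16.5, and the number that rose was 1 without replicate 2 of E12.5. The edgeR adjusted p over the leave-one-out fits was 0.0143 to 0.148 for Il1b, 0.0150 to 0.137 for Nr4a1, 0.00669 to 0.0540 for Egr3 and 0.0123 to 0.326 for Egr2, while for Tnf it was 0.00596 to 0.0376. Of 28 interferon response genes 2 fell, Rtp4 (-1.46) and Oas1a (-1.33), and 0 rose, with a median of -0.46. Their adjusted p was 0.00737 to 0.0890 for Rtp4 and 0.00364 to 0.0564 for Oas1a, both highest without replicate 3 of E12.5.

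Emb, Gsn and Itgal were further genes that fell by more than 2-fold. Emb, the adhesion protein embigin, was at 18.8, 23.4 and 21.0 CPM at E16.5, against 53.9, 124 and 79.1 CPM at E12.5 (log2 fold change -2.02 ± 0.23, edgeR adjusted p = 8.99e-07). Gsn, the actin-severing protein gelsolin, was at 59.0, 51.4 and 70.9 CPM at E16.5, against 156, 245 and 212 CPM at E12.5 (log2 fold change -1.76 ± 0.16, edgeR adjusted p = 1.42e-08). Itgal, the alpha chain of the integrin LFA-1, was at 85.9, 85.3 and 67.8 CPM at E16.5, against 204, 266 and 180 CPM at E12.5 (log2 fold change -1.44 ± 0.20, edgeR adjusted p = 2.17e-05). None of these groups overlapped. Ptpn7 (-1.96), Adam19 (-1.88), Tpm2 (-1.86), Adgre5 (-1.76) and Dok2 (-1.63) fell too, and all 8 calls stood in the leave-one-out fits. Of 21 adhesion and integrin genes Itgal fell and 2 rose, Itgam and Itgb2, which were described with complement, and the list median was 0.15.

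Transcripts of other cells were present and some moved with stage. Hbb-y, an embryonic beta-type globin (chr7:103851749-103853216), was at 0.771, 0.770 and 1.12 CPM at E16.5, against 317, 432 and 325 CPM at E12.5 (log2 fold change -8.64 ± 0.63, edgeR adjusted p = 3.13e-10). Hba-x, an embryonic alpha-type globin, had 10 counts in the E16.5 libraries together and 4532 in the E12.5 libraries. Hbb-bs, an adult beta globin, was at 141, 208 and 103 CPM at E16.5, against 34.2, 9.33 and 16.6 CPM at E12.5 (log2 fold change 2.91 ± 0.54, edgeR adjusted p = 0.00198). So the embryonic globins were lower and this adult one higher at E16.5. The adult alpha globin Hba-a1 was at 130.1, 194 and 94.0 CPM at E16.5, against 98.7, 90.3 and 133 CPM at E12.5 and was not called. Hbb-bs and Hbb-bt, and Hba-a1 and Hba-a2, are near-identical copies between which reads can be split, so their single values are uncertain. Of 13 tested erythroid genes 2 rose and 4 fell, the number risen was 1 without replicate 2 or replicate 3 of E12.5 and without replicate 1 or replicate 2 of E16.5, and the list summed to 355 to 647 CPM at E16.5 and 677 to 791 CPM at E12.5. Over the same stages BAM gave -8.25 for Hbb-y and 3.43 for Hbb-bs.

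**Figure D4:**
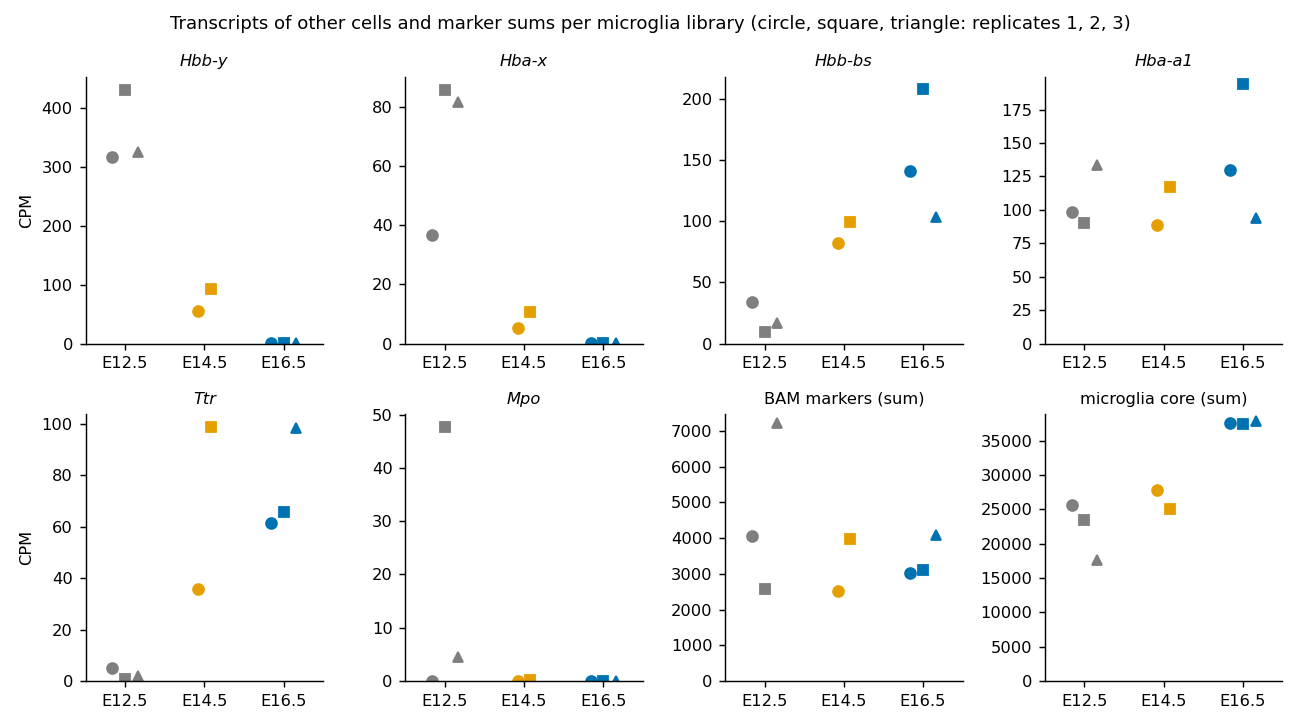
CPM per microglia library of 4 globins, Ttr and Mpo, and summed CPM of 20 BAM markers and 25 microglia core genes, with stages from E12.5 to E16.5 and replicates 1 to 3 drawn as circle, square and triangle. Hbb-y and Hba-x are near 0 at E16.5, Mpo is highest in replicate 2 of E12.5, and replicate 3 of E12.5 has the highest BAM sum (7228 CPM) and the lowest core sum (17570 CPM).

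Ttr, transthyretin, which the choroid plexus epithelium makes in large amounts, was at 61.5, 65.6 and 98.3 CPM at E16.5, against 4.97, 0.831 and 1.75 CPM at E12.5 (log2 fold change 4.93 ± 0.90, edgeR adjusted p = 0.00343). It was the member called among 12 tested mesenchymal, mural and plexus genes, whose list summed to 187 to 389.7 CPM at E16.5 and 199 to 332 CPM at E12.5. Mpo, a granulocyte enzyme, had 0 counts in every E16.5 library and 0, 1032 and 112 counts in E12.5 replicates 1, 2 and 3. Counts summed over each group were at least 308-fold lower at E16.5 with 3 counts allowed over its group. Most of the E12.5 sum came from replicate 2, and replicate 1 was at 0 like the E16.5 libraries, so the groups overlapped. The call was lost without replicate 2 of E12.5 and without replicate 1 of E16.5 (edgeR adjusted p 0.00235 to 0.0979 over the leave-one-out fits). Of 20 neural and glial genes Vim fell (-1.21 ± 0.20) and Olig1 rose (3.20 ± 0.71) at 5.17, 5.26 and 1.45 CPM at E16.5, against 0.351, 0.277 and 0.635 CPM at E12.5. The call of Olig1 was lost without replicate 2 of E12.5 and without replicate 1 of E16.5 (edgeR adjusted p 0.00805 to 0.0791 over the leave-one-out fits). The list, Vim included, summed to 341 to 613 CPM at E16.5 and 628 to 809 CPM at E12.5. Vim itself was at 87.35, 69.2 and 52.0 CPM at E16.5, against 130.7, 218 and 133 CPM at E12.5. It was also present in BAM, at 108.5 ± 2.51 CPM at E16.5 and 177 ± 22.9 CPM at E12.5. The list sums were 193 to 194 CPM at E16.5 and 145 to 258 CPM at E12.5 for 14 endothelial genes. They were 62.9 to 126 CPM at E16.5 and 140 to 284 CPM at E12.5 for 12 monocyte genes, of which Cd177 was at 0 in all 6 libraries. Much of the monocyte sum at E12.5 was Nr4a1, described above with the immediate early genes. It alone was at 36.7, 164 and 218 CPM there, within list sums of 140, 264 and 284 CPM, and at 28.6, 22.5 and 18.8 CPM at E16.5. For 16 granulocyte and mast cell genes the sums were 0.335 to 18.9 CPM at E16.5 and 2.86 to 71.4 CPM at E12.5, with Ly6g, Mcpt4 and Mcpt8 at 0 in all 6 libraries. For 12 lymphoid genes they were 673 to 839 CPM at E16.5 and 807 to 927 CPM at E12.5, with Cd3e, Ms4a1 and Rag1 at 0, and 0 of the 6 tested were called. The part of such transcripts in the other results was not tested.

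Of 20 BAM markers 2 rose (Cd163 and Cbr2) and 5 fell (Clec10a, F13a1, Ednrb, Dab2 and Colec12), with a median of -0.42. F13a1 was at 119, 87.8 and 341 CPM at E16.5, against 339, 220.4 and 1101 CPM at E12.5, so the groups overlapped (log2 fold change -1.60 ± 0.41, edgeR adjusted p = 0.0208). Mrc1 was at 318, 388 and 547 CPM at E16.5, against 606, 221 and 994 CPM at E12.5. Lyve1, a hyaluronan receptor, was at 12.4, 6.04 and 36.3 CPM at E16.5, against 11.3, 3.42 and 53.8 CPM at E12.5. Neither Mrc1 nor Lyve1 was called, and in both the E12.5 libraries spanned the E16.5 range. The number that fell was 1 without replicate 3 of E12.5, and 2 without replicate 1 or replicate 2 of E16.5. The number that rose was 0 without replicate 1 of E12.5, replicate 2 of E12.5 or replicate 3 of E16.5, 1 without replicate 1 and 3 without replicate 2 of E16.5. Over the leave-one-out fits the edgeR adjusted p was 0.00119 to 0.428 for F13a1, 0.00158 to 0.155 for the endocytic adaptor Dab2, 9.27e-05 to 0.0859 for the endothelin receptor Ednrb and 0.0126 to 0.474 for the haemoglobin scavenger Cd163.

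BAM sorted at the same stages allowed each change to be set beside that of the other population, with no library shared between the changes. Of the 883 genes called in microglia, 316 were also called in BAM with the same sign and 5 with the opposite sign. Among all 22061 tested genes, 1037 were called in BAM, 607 higher and 430 lower at E16.5. The direct test of the difference, the change in microglia minus the change in BAM, called 120 of 22061 genes (0.544%), 15 with a positive and 105 with a negative difference. Of these, 47 were also called in microglia, 8 that rose and 39 that fell. None of the 25 microglia core, 25 mitosis or 27 replication genes was among the 120. Their list medians in microglia were 0.78, -0.77 and -0.68, and in BAM 0.68, -0.67 and -0.75. The axon-tract and lysosome lists had medians of 0.50 and 0.46 in microglia and 0.51 and 0.49 in BAM, with 1 gene of each list among the 120. A difference that was not called does not show that the changes were equal.

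**Figure D5:**
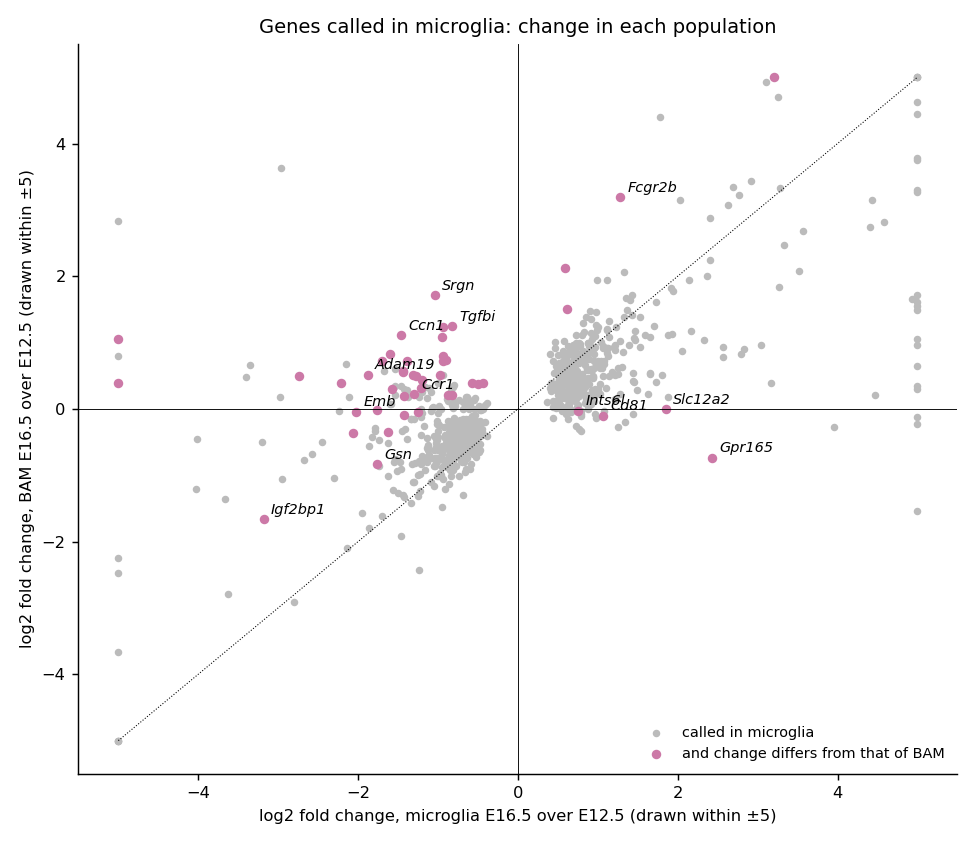
Each point is 1 of the 883 genes called in microglia, with its log2 fold change in microglia, E16.5 over E12.5, on the horizontal axis and that in BAM on the vertical axis, both drawn within ±5. Pink points (47) are genes whose changes also differed between the populations, 39 of them lower at E16.5 in microglia, and the dotted line marks equal change.

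The genes called with opposite signs were Tgfbi, Srgn, Tagap, Cybb and Ccn1, all lower at E16.5 in microglia and higher at E16.5 in BAM. Tgfbi, a secreted matrix protein (chr13:56609523-56639562), averaged 121 ± 8.21 CPM at E16.5 and 214 ± 10.8 CPM at E12.5 in microglia (log2 fold change -0.82 ± 0.12). In BAM it averaged 716 ± 99.5 CPM at E16.5 and 303 ± 27.6 CPM at E12.5 (1.24 ± 0.12). The difference of -2.06 ± 0.17 had an edgeR adjusted p of 1.33e-09. The changes in microglia and in BAM were -0.94 ± 0.24 and 1.09 ± 0.24 for Cybb, the catalytic subunit of the phagocyte NADPH oxidase, and -1.04 ± 0.29 and 1.71 ± 0.29 for Srgn, a proteoglycan of secretory granules. The difference was called for these 5 genes in every fit that left out 1 of the 12 libraries. The fall in microglia itself was called throughout for Tgfbi, whereas over the leave-one-out fits its edgeR adjusted p was 0.0230 to 0.0855 for Cybb, 0.0328 to 0.118 for Srgn, 0.00192 to 0.177 for Tagap and 0.00550 to 0.0779 for Ccn1.

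A further group fell in microglia while the change in BAM was not called. Ccr1 in BAM was at 256 ± 15.9 CPM at E16.5 and 220.1 ± 7.09 CPM at E12.5, and the difference of changes was -1.52 ± 0.20 (edgeR adjusted p = 1.81e-05). Emb in BAM was at 119 ± 14.6 CPM at E16.5 and 123 ± 26.4 CPM at E12.5 (difference -1.98 ± 0.32, edgeR adjusted p = 0.000474). Itgal in BAM was at 39.1 ± 2.87 CPM at E16.5 and 26.4 ± 0.638 CPM at E12.5 (difference -2.01 ± 0.28, edgeR adjusted p = 5.83e-05). The log2 fold changes in BAM were 0.22 for Ccr1, -0.05 for Emb and 0.57 for Itgal, and none was called. Igf2bp1 fell in both populations, by 3.18 in microglia and 1.66 in BAM on the log2 scale, and the difference of -1.52 ± 0.25 was called (edgeR adjusted p = 0.000720). At E16.5 its level was 18.4 ± 2.05 CPM in microglia and 67.4 ± 3.89 CPM in BAM.

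Few genes rose further in microglia than in BAM. Gpr165 was at 54.5, 34.7 and 24.8 CPM in E16.5 microglia, against 10.6, 6.32 and 4.37 CPM in E12.5 microglia, and at 13.3 ± 4.26 CPM in E16.5 BAM and 22.03 ± 4.65 CPM in E12.5 BAM (difference 3.16 ± 0.54, edgeR adjusted p = 0.00134). Cd81, a tetraspanin, averaged 1748 ± 183 CPM in E16.5 microglia and 837 ± 146 CPM in E12.5 microglia, and 363 ± 26.7 CPM in E16.5 BAM and 390.4 ± 41.1 CPM in E12.5 BAM (difference 1.17 ± 0.21, edgeR adjusted p = 0.00158). Both differences were called in every fit that left out 1 library. Those of Slc12a2 (1.85 ± 0.40) and Ints6l (0.79 ± 0.17) were lost in some, with an edgeR adjusted p of 0.00155 to 0.0706 for Slc12a2 and 0.0174 to 0.0627 for Ints6l. Fcgr2b was at 102 ± 10.99 CPM in E16.5 microglia and 42.1 ± 15.1 CPM in E12.5 microglia, and at 578 ± 37.6 CPM in E16.5 BAM and 63.3 ± 3.19 CPM in E12.5 BAM, so that it rose in both and further in BAM (difference -1.91 ± 0.31, edgeR adjusted p = 0.000574).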

How the data were processed

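Sorted microglia and BAM were measured by RNA-seq, with paired-end SMART-seq2 libraries per the labels' protocols. Alignment with STAR, counting with featureCounts and the build GRCm38 are named in the submitters' processing notes, with versions not given in the sources used here. The deposited values are raw counts per gene, not normalized by the authors. Even counts outnumber odd ones (49977 values of 2 and 21280 of 1), so both reads of a pair may have been counted.

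All 39 libraries in 12 groups entered 1 fit with edgeR 4.0.16 (R 4.3.3, limma 3.58.1), with filterByExpr (22061 of 53379 identifiers kept, 99.973% of counts), TMM factors, the quasi-likelihood test and Benjamini-Hochberg adjustment over all tested genes, called under 0.05. SE is the standard error of the log2 fold change from that fit, which had 27 residual degrees of freedom. CPM uses TMM-scaled library totals. Symbols and positions come from the GRCm38 annotation by gene identifier. List medians and counts are descriptions. The floor of 3 counts for genes at 0 covers counting error only. The scripts were tested on simulated data.

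Genes were named by rule: the 15 called genes with the largest change each way (mean of at least 16 CPM, groups not overlapping), up to 4 called members per list by p, the 8 largest differences from BAM each way, and a marker panel. Other list members were named after their values were seen. A few genes are not reported here. The comparison and the lists were chosen with earlier results of these data known. Within a stage, microglia and BAM libraries with consecutive title numbers deviated together from their group means (r = 0.227 to 0.456 over 7572 genes in 6 pairs, against -0.407 to 0.0989 in the 12 other combinations), and the labels do not say what these pairs share. Deviations from a mean cancel within each group, so positive values in some combinations force lower ones in others. The contrast between these ranges is thus in part fixed by construction. A fit with these pairs as a replicate block was added for the difference from BAM, chosen after seeing the data. Other alternatives were RLE factors, no filter, DESeq2 1.42.0, the compared libraries alone, the R8 libraries alone, a test against a 2-fold change, counts divided by 2, and each library left out.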

Additional observations from a re-analysis of the deposited data

Results flagged for a closer look

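The change from E12.5 to E16.5 differed between microglia and BAM, by the edgeR test of the difference itself, for 23 genes named in the text. Values are the log2 change in microglia minus that in BAM.

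Among genes that fell in microglia with a positive or less negative change in BAM, the difference was -2.75 for Srgn, -2.57 for Ccn1, -2.18 for Tagap, -2.06 for Tgfbi and -2.03 for Cybb, each called with opposite signs in the populations. It was -2.40 for the metalloprotease Adam19, -2.11 for the matrix protein Emilin2, -2.01 for Itgal, -1.98 for Emb, -1.52 for Ccr1, -1.74 for the adhesion receptor Adgre5, -2.60 for Ccl7, -2.43 for F13a1, -1.64 for the scavenger receptor Colec12, -1.28 for the adaptor Dok2 and -0.93 for Gsn. Igf2bp1 fell in both populations (-1.52) and Fcgr2b rose in both (-1.91). The difference was positive for Gpr165 (3.16), Slc12a2 (1.85), Cd81 (1.17) and Ints6l (0.79). For Olig1 the fitted difference of -6.54 is no bound, since the E12.5 BAM libraries had 0 CPM.

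Over the fits that left out 1 of the 12 libraries, the edgeR adjusted p of the difference was above 0.05 in at least 1 fit for Ccl7 (0.00549 to 0.0519), Colec12 (0.000457 to 0.0509), Dok2 (0.00315 to 0.184), F13a1 (0.00143 to 0.336), Gsn (0.00893 to 0.182), Ints6l (0.0174 to 0.0627), Olig1 (0.0489 to 0.145) and Slc12a2 (0.00155 to 0.0706). With libraries of consecutive titles as a replicate block, that of Olig1 was 0.0507. Over the left-out libraries it was highest without replicate 3 of E12.5 microglia for F13a1, Dok2 and Slc12a2.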

How the results depend on the processing

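The reported setting called 883 genes, 403 higher and 480 lower at E16.5, and 120 differences from BAM, 15 positive and 105 negative. DESeq2 called 1544 genes, 718 higher and 826 lower, and 278 differences, 57 positive and 221 negative. The R8 libraries alone gave 1640 genes, 679 higher and 961 lower, and 207 differences, 27 positive and 180 negative. Tested against a 2-fold change, 16 genes were called, 7 higher and 9 lower, with 12 differences, 2 positive and 10 negative. The compared libraries alone gave 610 genes, of which 301 were lower. The other counts under these settings, and those with RLE factors, without a filter and with halved counts, moved by less than 1.5 times. Leaving out each library gave 446 to 884 genes, 150 to 389 higher and 212 to 495 lower, and 79 to 126 differences, 11 to 21 positive and 66 to 112 negative. The share of called genes with E14.5 between the other stages, 87.4%, was 91.0% without a filter, 82.6% with DESeq2, 84.2% with the R8 libraries, 100% at the 2-fold threshold and 86.8% to 90.7% with each library left out.

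No called gene named by rule changed direction. Among the named genes that were not called, the log2 fold change of Lyve1 went from -0.33 to 1.25 without replicate 3 of E12.5. That of Apoe went from 0.12 to as low as -0.08 over the leave-one-out fits. Of 129 named called genes, 118 lost the call at the 2-fold threshold, 34 with the compared libraries alone and 11 to 36 with each library left out (36 without replicate 2 or replicate 3 of E12.5, 35 without replicate 1 of E16.5), and 11 kept it under every alternative. No paired analysis was possible because the labels give no number that ties libraries of different stages to each other. For the difference from BAM, the replicate block of libraries with consecutive titles gave 137 calls, 16 positive and 121 negative, and of 23 named differences only that of Olig1 lost its call. Calls also depended on which libraries the spread was estimated from. The reported fit used all libraries of the study for this, not the compared ones alone. Its E18.5 groups hold libraries of both series marks, R8 and R10, so any difference between the marks enters that spread. In that fit Sall1 was not called at a log2 fold change of 1.07 (SE 0.62), while Cx3cr1 was called at 0.54. With the compared libraries alone Sall1 was called (edgeR adjusted p = 0.0205) and Cx3cr1 was not (edgeR adjusted p = 0.176).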
